A study of Rattus norvegicus with 14 samples.

Results

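Aldoa codes for aldolase A, the glycolytic enzyme that splits fructose-1,6-bisphosphate, and it was represented by 16 of the 4993 candidate transcription start sites (TSSs) measured in rat sciatic nerve and Schwann cell cultures. The members were all TSSs that carried the symbol Aldoa. The study selected its candidate TSSs on reads in nerve and on nearby H3K4me3 and SOX10 ChIP-Seq peaks of that tissue, and Aldoa was picked with earlier results of these data known, so the nerve values chose the members and are described without a test. Because of that pick, p-values for Aldoa in the culture comparisons are also a description, set against all features of the table. The table named 2994 genes, of which 2306 had a single candidate TSS and 9 had more than 16. The median among genes with several TSSs was 2.

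In mammals, Aldoa is transcribed from several promoters that give mRNAs with different noncoding leaders and the same protein. The downstream promoter is used in most tissues, whereas an upstream promoter is known for its activity in skeletal muscle. Schwann cells, the glia of peripheral nerve, run glycolysis and pass lactate to the axons they ensheath. SOX10 is the transcription factor that specifies and maintains this lineage, and H3K4me3 is a histone mark of active promoters.

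Tn5Prime reads begin at the 5′ end of captured transcripts, and each value gives the reads of a TSS in a library, scaled to that library's size (RPM). Sciatic nerve was taken from 2 independent wild-type adult rats of 6 to 9 months, with no treatment. Wild-type rat primary Schwann cells, kept first in neuregulin and forskolin and then without either in 5% serum, received vehicle (control, n = 3) or 250 µM CPT-cAMP for 3 days (cAMP, n = 3), a cyclic AMP analog that drives their differentiation. S16 is an immortalized rat Schwann cell line grown in 10% serum, which was measured unmodified (parental, n = 2) and as 4 ΔSOX10 clones in which Sox10 was edited with Cas9. Each clone is a single line, and 2 guides gave the 4 clones (1-1, 1-2, 2-1, 2-2). The first number of a label is taken to be the guide, which the labels do not state. Separate RNA isolations gave all libraries, and p-values set differences against the spread between them. In S16 cells this spread is that between RNA samples of the unmodified line and that between clones. Parental cells were neither selected nor cloned, so SOX10 loss and clonal derivation cannot be told apart.

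The libraries held between 29895599 and 79940274 reads, of which the candidate TSSs took 28.7% to 37.0%. In the ΔSOX10 clones, Sox10 itself fell from 84.1 ± 9.34 RPM (SD, n = 2) in parental cells to 0.0412 ± 0.04998 RPM (n = 4; log2 fold change -6.35, limma adjusted p = 1.57e-05). Of 11 Schwann cell markers, 10 had a candidate TSS, and their summed level was 72516 to 73571 RPM in nerve, 5949 to 6154 RPM in controls, 10601 to 12258 RPM with cAMP, 10212 to 10364 RPM in parental S16 cells and 146 to 400 RPM in ΔSOX10 clones. The clones had the lowest sum, and Pmp22, a myelin protein gene, made up 220 ± 113 RPM of it on average (n = 4). None of 14 skeletal muscle markers, 4 endothelial or 4 adipocyte markers had a row in the candidate table, and Col1a1, Pdgfra, Pdgfrb and Csf1r were the only markers of other cells that did. A row required nearby H3K4me3 and SOX10 peaks in nerve, so a missing row does not tell whether those cells were present.

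The 16 Aldoa TSSs lay on the minus strand of rat chromosome 1 (rn5) and spanned 4248 bp from chr1:205209229-205213476. Their widths ran from 2 to 124 bp (median, 8.5 bp), and the median over all candidate TSSs was 57 bp. Gaps of 500 bp or more, a limit chosen with these positions known, divided them into 4 groups. The main group held the main TSS (chr1:205212155-205212210, 56 bp) and a 4-bp TSS 115 bp further downstream. The upstream group held a narrow TSS (chr1:205213088-205213094, 7 bp), whose 5′ edge was 884 bp upstream of that of the main TSS, a broad TSS (chr1:205213394-205213437, 44 bp) 343 bp above the narrow one, and a 2-bp TSS (chr1:205213475-205213476) at the upstream end.

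The near downstream group held 3 TSSs, of which the 42-bp TSS at chr1:205210456-205210497 was the highest and is called the near downstream TSS here. The far downstream group held 8 TSSs between chr1:205209229 and chr1:205209899, with the 124-bp TSS at chr1:205209634-205209757 (the far downstream TSS) as the highest. The annotation of the rn5 build was not used here, so exons and introns are not assigned. The H3K4me3 peak of nerve (chr1:205210222-205213645) covered 8 of the 16 TSSs, and the far downstream group lay outside it by up to 984 bp. Among all candidate TSSs, 88.4% overlapped their H3K4me3 peak. The study kept only TSSs within a kilobase of such a peak, so any start further away has no row here. The SOX10 peak (chr1:205211600-205211999) overlapped no Aldoa TSS, while 51.7% of all candidate TSSs overlapped theirs. It lay downstream of the main TSS in the direction of transcription, at a distance of 156 bp. RefSeq lists 9 Aldoa pseudogenes in the rat, and reads from sequence shared with such copies could have been split or lost in mapping. Levels are uncertain for that reason, and which of the 16 TSSs it touches was not tested.

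**Figure D1:**
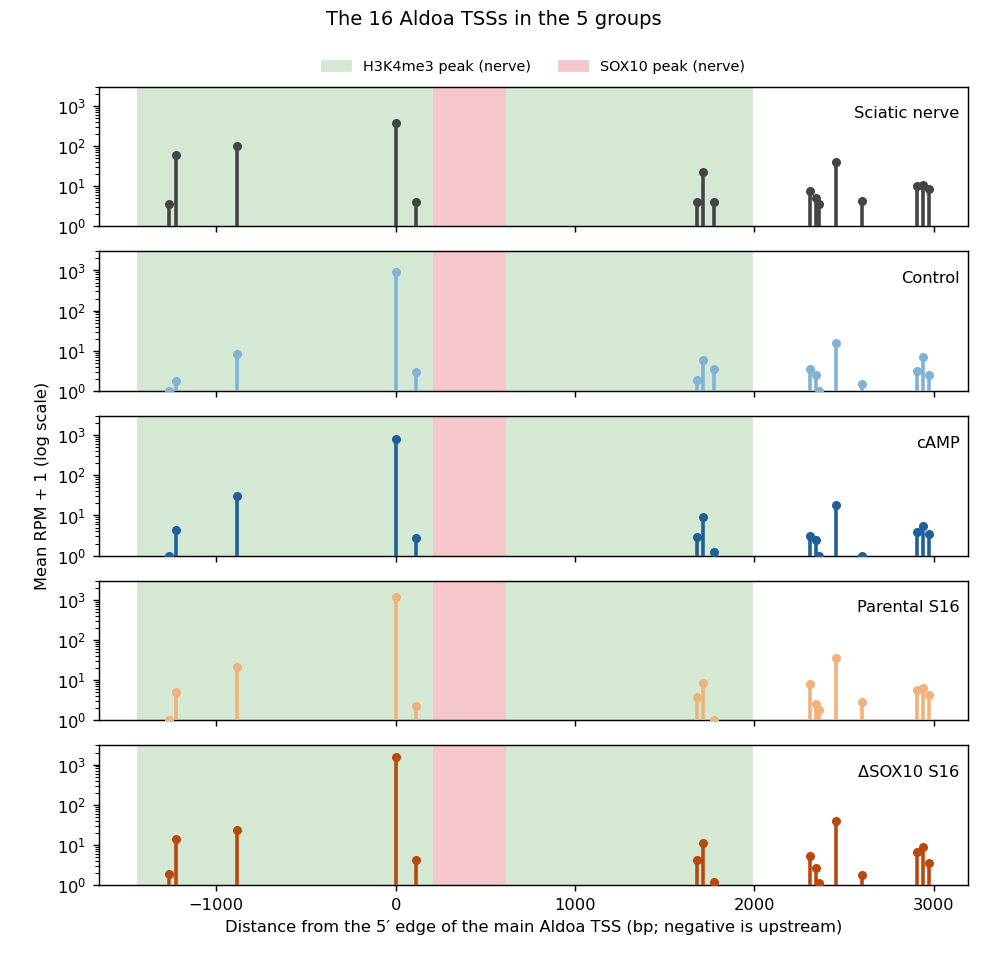
Mean RPM + 1 (log scale) of the 16 Aldoa TSSs in the 5 groups against distance in bp from the 5′ edge of the main TSS, with the H3K4me3 and SOX10 peaks of nerve shaded. The main TSS was the highest in every group, and the upstream TSSs at 884 and 1227 bp upstream reached 99.96 and 58.8 RPM in nerve against 7.35 and 0.808 RPM in control cells.

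RefSeq annotates 3 Aldoa starts in the GRCr8 build of the rat genome, spaced by 373 and 871 bp. The 5′ edges of the narrow and main TSSs were 884 bp apart in rn5, and the other upstream TSSs lay 343 and 382 bp above the narrow one. No coordinates were converted between the builds, so a match of TSSs to annotated starts rests on spacing alone. The 150 bases before each annotated start are shown because the data separate upstream from downstream initiation. Capitals mark matches, on either strand, to TATAA (the TATA box), to GGGCGG (the GC box bound by Sp1), to ACAAA and ACAAT (letters found in SOX sites), or to TGACG (the core of cyclic AMP response elements), and the lines run 5′ to 3′ on the minus strand from the most upstream start to the most downstream.
Aldoa start A (GRCr8, chr1:190838022-190838171): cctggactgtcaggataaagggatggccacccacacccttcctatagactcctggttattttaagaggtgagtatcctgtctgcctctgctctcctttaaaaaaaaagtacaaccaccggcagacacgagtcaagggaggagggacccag
Aldoa start B (GRCr8, chr1:190837649-190837798): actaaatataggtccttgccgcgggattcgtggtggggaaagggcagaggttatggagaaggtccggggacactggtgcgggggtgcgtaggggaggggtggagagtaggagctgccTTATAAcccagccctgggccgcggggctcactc
Aldoa start C (GRCr8, chr1:190836778-190836927): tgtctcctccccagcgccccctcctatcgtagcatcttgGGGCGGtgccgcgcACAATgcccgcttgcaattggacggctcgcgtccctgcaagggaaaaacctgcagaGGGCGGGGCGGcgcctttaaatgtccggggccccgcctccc

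The window of start B held TATAA 32 to 28 bases before the start, with an overlapping match on the other strand. Among all 33465 RefSeq rat promoter windows of that length, 15.2% held TATAA. The window of start C held GGGCGG 3 times, at 111, 41 and 36 bases before the start, the latter pair overlapping by 1 base, and 26.0% of all windows held that motif. It also held ACAAT at 97 bases (19.6% of all windows) and a CANNTG at 83 bases that is left in lower case (46.6%). No window held ACAAA (28.0% of all) or TGACG (13.4%), and the window of start A held none of the 6 motifs. GC content was 50.7%, 62.7% and 67.3% in order, against a median of 52.7%. These matches describe letters only.

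Summed over the 16 TSSs, Aldoa was lowest in nerve, at 586 and 694 RPM. The sum was 1008, 997 and 948 RPM in controls, 874, 859 and 923 RPM with cAMP, and 1343 and 1251 RPM in parental S16 cells. The ΔSOX10 clones had 1810, 1286, 1668 and 1905 RPM. Nerve, cAMP, control and parental libraries did not overlap in that ascending order, and the lowest clone lay within the range of the parental libraries. Nerve contains several cell types, and in such bulk samples fewer cells of a type and less RNA per cell cannot be told apart. Primary cell libraries were run on a NovaSeq and the others on a HiSeq sequencer, so instrument and primary culture cannot be told apart either.

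The main TSS carried most of that sum in each library. It stood at 333 and 404 RPM in nerve, 962, 944 and 906 RPM in control cells, 794, 794 and 843 RPM with cAMP, 1249 and 1157 RPM in parental S16 cells, and 1667, 1208, 1562 and 1769 RPM in ΔSOX10 clones 1-1, 1-2, 2-1 and 2-2. Both nerve libraries lay below all culture libraries. The mean was 2.54 times the nerve mean in control cells, 2.20 times with cAMP, 3.26 times in parental S16 cells and 4.21 times in the clones.

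The narrow upstream TSS was highest in nerve. It reached 96.1 and 104 RPM in nerve, 6.20, 12.3 and 3.54 RPM in control cells, and 33.2, 23.5 and 30.2 RPM with cAMP. Parental S16 cells had 19.1 and 20.4 RPM, and the clones 31.3, 9.28, 13.3 and 38.8 RPM. All culture libraries were below both nerves, with a nerve mean 13.6 times that of control, 3.45 times that of cAMP, 5.06 times that of parental and 4.31 times that of ΔSOX10 libraries. Without control 2, an alternative added after the data were seen, the nerve mean was 20.53 times the control mean. Control and parental libraries, and parental and cAMP libraries, did not overlap, while the clones overlapped all 3 of these groups.

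The broad upstream TSS was the most nerve-weighted of the larger TSSs. It had 52.0 and 65.6 RPM in nerve, 0, 0.168 and 2.26 RPM in control cells, 1.43, 3.21 and 5.37 RPM with cAMP, 3.07 and 5.00 RPM in parental cells, and 15.8, 9.15, 9.21 and 17.96 RPM in the clones. One control library thus had no read at this TSS, where 3 reads would equal 0.0525 RPM, and the nerve mean was 72.8 times the control mean. Without control 3, an alternative likewise added after the data were seen, the control mean was 0.0841 RPM and the ratio 699.6. The clones lay between the parental libraries and the nerves, without overlap with either. The 2-bp TSS at the upstream end was seen at 2.98 and 2.32 RPM in nerve and at 1.10 and 2.26 RPM in clones 1-1 and 1-2, and was at 0 in the other 10 libraries.

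**Figure D2:**
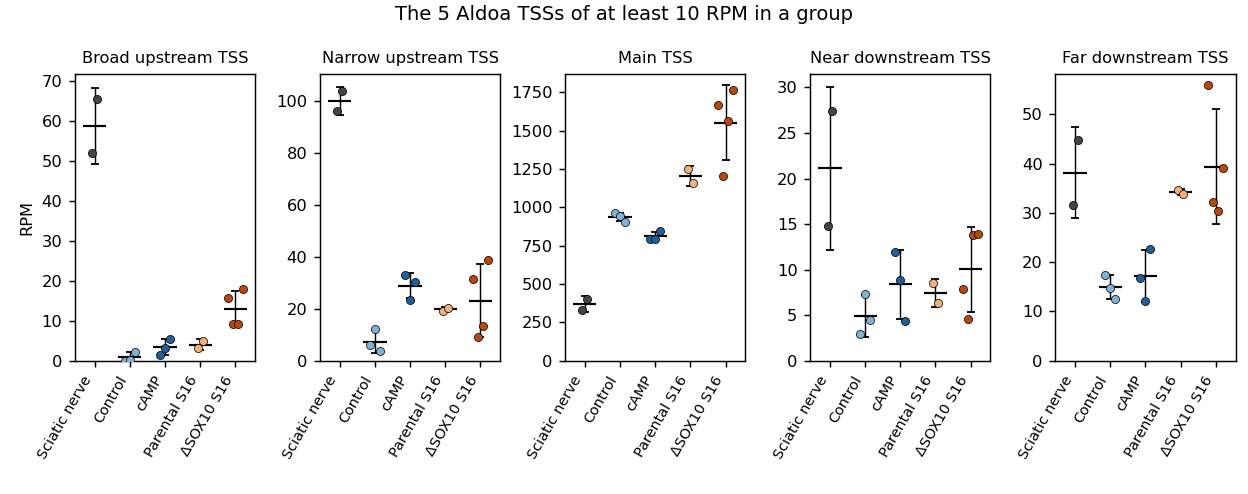
RPM of the 5 Aldoa TSSs with a mean of at least 10 RPM in any group, by group on the x axis; points are libraries, lines means and error bars SD. Nerve is highest at both upstream TSSs, at 96.1 and 104 RPM for the narrow one, and lowest at the main TSS, at 333 and 404 RPM.

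Both downstream TSSs were below the main TSS in every library. The near downstream TSS had 14.8 and 27.5 RPM in nerve, 2.87, 7.34 and 4.49 RPM in control cells, 11.9, 8.83 and 4.37 RPM with cAMP, 8.52 and 6.32 RPM in parental cells and 7.85, 4.52, 13.8 and 13.9 RPM in the clones. The far downstream TSS had 31.6 and 44.7 RPM in nerve, 17.5, 14.7 and 12.5 RPM in control cells, 16.8, 12.1 and 22.6 RPM with cAMP, 34.7 and 33.8 RPM in parental cells, and 56.0, 32.1, 30.5 and 39.02 RPM in the clones. At the near TSS both nerves were above all other libraries, and at the far TSS S16 cells overlapped nerve while both primary groups lay below it.

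The remaining 10 TSSs had means under 10 RPM in all groups. Their highest mean was 9.32 RPM, in nerve, at chr1:205209259-205209270, and this TSS shows how uneven low values were, with 0.490, 8.45 and 8.86 RPM in the control libraries. These correspond to 28, 553 and 456 reads, so that counting error alone does not cover the spread. No molecular identifiers are named in the sources used here, so PCR copies count as separate reads. Values of this size were not read further.

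Shares are of the Aldoa total over these 16 TSSs, which were selected on nerve, so a start without a row is not counted. The main TSS took 56.8% and 58.3% of it in the nerves and 90.9% to 95.5% in the 12 culture libraries. Control cells had 95.4%, 94.7% and 95.5%, cAMP-treated cells 90.9%, 92.4% and 91.3%, parental cells 93.0% and 92.5%, and the clones 92.1%, 93.9%, 93.7% and 92.9%. The narrow TSS took 15.7% ± 1.03 (SD, n = 2) of the nerve total, 0.741% ± 0.444 in control (n = 3), 3.27% ± 0.530 in cAMP (n = 3), 1.53% ± 0.150 in parental (n = 2) and 1.32% ± 0.662 in ΔSOX10 libraries (n = 4). For the broad TSS these shares were 9.16% ± 0.398, 0.085% ± 0.133, 0.373% ± 0.209, 0.314% ± 0.121 and 0.770% ± 0.174, and the control share was 0.0084% without control 3. The far downstream group took 12.6% ± 1.86 in nerve and between 2.93% and 4.53% on average in the culture groups, and the near downstream group 4.14% ± 1.30 in nerve and between 0.793% and 1.203% in culture.

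Both terms of the share moved. All TSSs but the main one summed to 272 RPM in nerve against 47.3 RPM in control, 75.0 RPM in cAMP, 94.1 RPM in parental and 116 RPM in ΔSOX10 cells. For each 100 RPM of the main group, the upstream group had 43.6 ± 2.28 RPM in nerve (n = 2), 0.867 ± 0.392 in control (n = 3), 3.97 ± 0.539 in cAMP (n = 3), 1.98 ± 0.301 in parental (n = 2) and 2.31 ± 0.865 in ΔSOX10 libraries (n = 4). The nerve ratio was 50.3 times that of control cells and 11.0 times that of cAMP-treated cells.

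**Figure D3:**
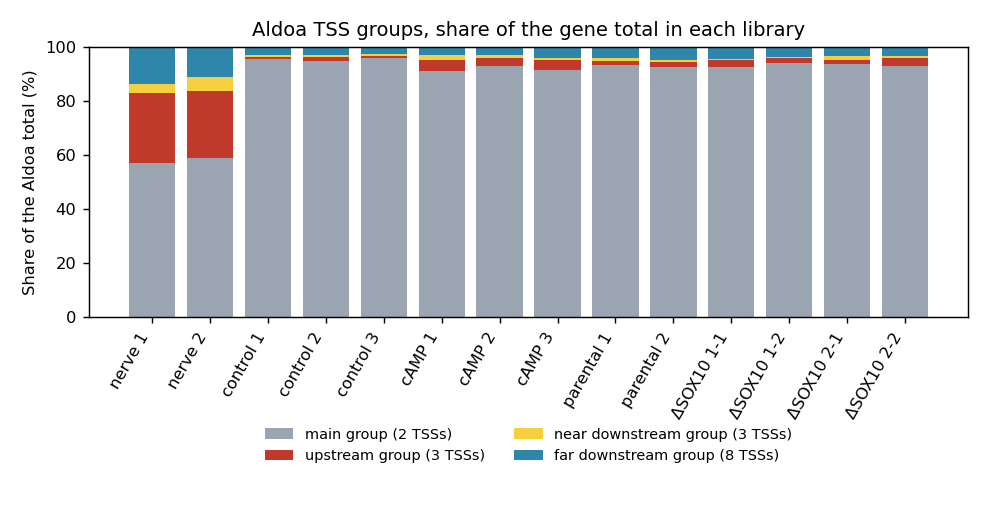
Share of the Aldoa total over the 16 candidate TSSs (%) taken by the 4 TSS groups in each of the 14 libraries. The upstream group takes 25.8% and 24.7% in the nerve libraries and at most 3.96% in the culture libraries.

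In control cells, 9 of the 16 Aldoa TSSs were below both nerves in every library, 1 (the main TSS) was above and 6 overlapped. Of all candidate TSSs, 28.5% were below both nerves in that way. In parental S16 cells the Aldoa numbers were 7 below, 1 above and 8 overlapping, and 35.3% of all candidate TSSs were below. These counts follow from the nerve values that chose the rows, and nothing was read from them. A rising share of the strongest nerve TSS was also common among genes: of 462 genes with several TSSs and at least 10 RPM in nerve, control and parental libraries, 84.8% had a higher share of it in control cells than in nerve, with a median difference of 5.23 percentage points. The difference for Aldoa was 37.7 points, and 15 other genes had one at least as large. In parental S16 cells it was 35.2 points, against a median of 5.57, and 12 other genes had at least that. The share in nerve was 57.5% for Aldoa and had a median of 89.1% over those genes. The median gene thus had less room to rise, and the differences are not on an equal footing.

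Treatment with cAMP raised the narrow upstream TSS and lowered the main TSS by a small amount. The narrow TSS rose from 7.35 ± 4.49 RPM in control cells to 29.0 ± 4.94 RPM with cAMP (n = 3 each), which is 3.94-fold, with all 3 cAMP libraries above all 3 control libraries (log2 fold change of RPM + 1 1.97, SE 0.381, limma adjusted p = 0.000473). The main TSS fell from 937 ± 28.7 to 810 ± 28.0 RPM (log2 fold change -0.21, SE 0.07, adjusted p = 0.0242), again without overlap. Its call was lost without control 1, control 2, cAMP 1 or cAMP 2 (adjusted p between 0.0543 and 0.0989), and with all 14 libraries in the model (0.337). The call of the narrow TSS held in the 16 alternatives tried.

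Of the 16 TSSs, 13 passed the filter of more than 1 RPM in at least 2 libraries, 1 was called higher and 1 lower, where 12.9% of all tested TSSs were higher and 11% lower. Groups did not overlap at 3 of the 13, against 36.6% of all tested TSSs. The remaining one of these was the TSS at chr1:205210434-205210436, named here after its values were seen, with 2.42, 2.90 and 2.02 RPM in control cells and 0.713, 0 and 0.0147 RPM with cAMP (log2 fold change -1.51, adjusted p = 0.068). The broad upstream TSS went from 0.808 ± 1.26 to 3.33 ± 1.97 RPM, with a log2 fold change of 1.37 (SE 0.63) and an adjusted p of 0.130, and its groups overlapped. The near downstream TSS had a log2 fold change of 0.65 (SE 0.49, adjusted p = 0.384) and the far one of 0.16 (SE 0.33, adjusted p = 0.789).

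Summed over positional groups, the upstream group rose from 8.15 ± 3.74 to 32.3 ± 4.84 RPM (log2 fold change 1.93, SE 0.34, adjusted p = 0.00013) and the main group fell from 939 ± 27.1 to 812 ± 26.8 RPM (-0.21, SE 0.07, adjusted p = 0.0202). The near and far downstream groups were not called (0.19 and 0.05). Over all such groups, 14.4% were higher and 13.4% lower. The upstream group's share was 0.615%, 1.25% and 0.611% in control libraries and 3.96%, 3.11% and 3.85% in cAMP libraries, a difference of 2.81 percentage points (exact two-sided permutation test, p = 0.1, the smallest that 3 against 3 libraries allow).

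The Aldoa sum did not pass the test, at 984 ± 31.8 RPM in control and 885 ± 33.3 RPM in cAMP libraries (log2 fold change -0.15, SE 0.07, adjusted p = 0.0841), where 14.6% of gene sums were higher and 14.7% lower. A test of whether the TSSs moved relative to each other (limma diffSplice, Simes p-value per gene) gave an adjusted p of 0.321 for Aldoa, with 9.59% of 459 genes called. It gave 0.00322 with a pseudocount of 5 RPM in place of 1. The change of use was therefore not established at the gene level, although the narrow TSS itself was called.

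In S16 cells, no Aldoa TSS passed the test after loss of SOX10. By limma, 0 of 14 tested TSSs were higher and 0 lower, where 1.65% and 6.55% of all tested TSSs were, and 1 had an unadjusted p under 0.05. DESeq2 on recovered reads called 2 TSSs higher and edgeR's quasi-likelihood test 0. Groups did not overlap at 2 of the 14, against 29.4% of all tested TSSs. Over all TSSs tested in S16 cells, the log2 fold changes of RPM + 1 had a median of -0.18, which TMM or median-ratio scaling moved to -0.05. Aldoa values are given without such scaling.

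The broad upstream TSS was the one nearest to the threshold. It went from 4.04 ± 1.36 RPM in parental cells (n = 2) to 13.0 ± 4.53 RPM in the clones (n = 4), all 4 of which were above both parental libraries (log2 fold change 1.45, SE 0.42, limma adjusted p = 0.0717). It was called under TMM and median-ratio scaling, with an adjusted p of 0.0428 under each, and by DESeq2 (0.00761). The narrow TSS, 343 bp away, had 19.8 ± 0.953 RPM in parental cells and 23.2 ± 14.2 RPM in the clones (log2 fold change 0.01, SE 0.53, adjusted p = 0.996). Its clones were split, since 1-1 and 2-2 were above and 1-2 and 2-1 below both parental libraries. If the first number of the label is the guide, this puts 1 clone of each guide on either side.

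The main TSS had 1203 ± 65.5 RPM in parental cells and 1552 ± 244 RPM in the clones, with clone 1-2 inside the parental range (log2 fold change 0.35, SE 0.19, adjusted p = 0.368), and DESeq2 called it higher (adjusted p = 0.012). The near and far downstream TSSs had log2 fold changes of 0.29 (SE 0.48) and 0.16 (SE 0.28). The second TSS without overlap was at chr1:205209889-205209899, outside the naming rule, with 6.53 and 7.13 RPM in parental cells and 5.38, 4.25, 2.84 and 4.36 RPM in the clones (log2 fold change -0.61, SE 0.39, adjusted p = 0.447).

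By limma, none of the 4 positional groups was called in S16 cells (DESeq2 called the main group higher, adjusted p = 0.0214), where 2.16% of all groups were higher and 5.94% lower. Their log2 fold changes were 0.49 for the upstream, 0.35 for the main, 0.23 for the near downstream and 0.06 for the far downstream group. The Aldoa sum went from 1297 ± 65.2 to 1667 ± 272 RPM (log2 fold change 0.35, SE 0.20, adjusted p = 0.389), with 2.3% of gene sums higher and 5.95% lower, and DESeq2 called it higher (0.50, adjusted p = 0.030). TSS use had an adjusted p of 0.775, with 5.05% of 416 genes called. The upstream group's share was 1.65% and 2.03% in parental libraries and 2.66%, 1.61%, 1.35% and 2.98% in the clones (exact two-sided permutation test, p = 0.8, with 0.133 the smallest possible).

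**Figure D4:**
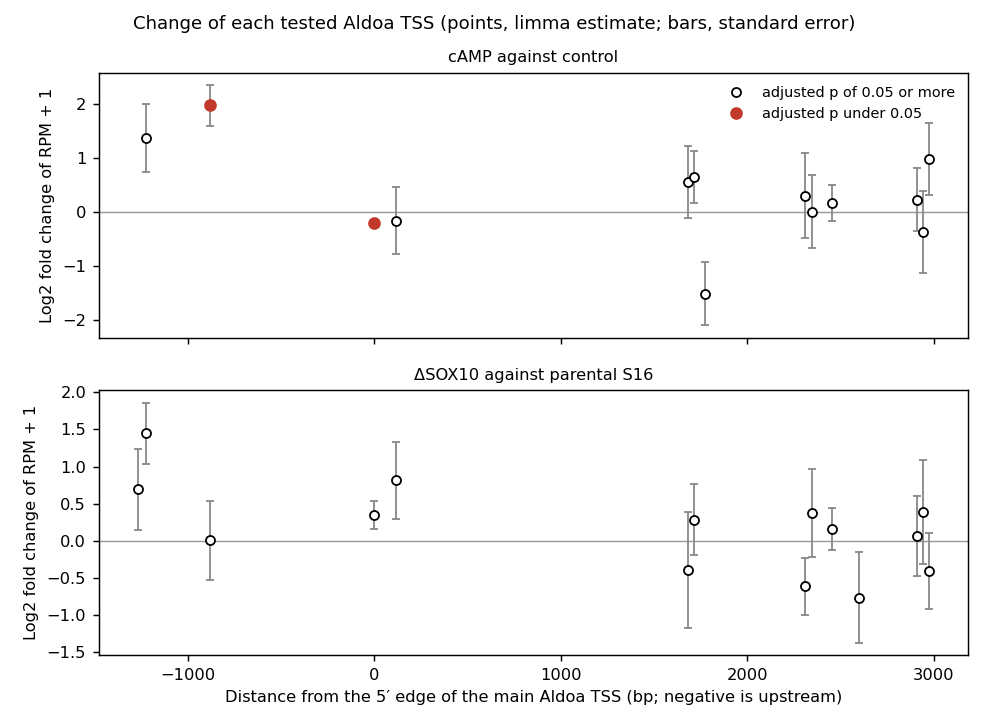
Log2 fold change of RPM + 1 with its standard error for each tested Aldoa TSS against distance in bp from the main TSS, with cAMP against control above and ΔSOX10 against parental S16 below; filled points passed the adjusted threshold. The narrow upstream TSS (1.97) and the main TSS (-0.21) are filled in the upper panel, and no point is in the lower one.

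Of 41 other genes of glycolysis, glucose and lactate transport and pyruvate entry, 7 had candidate TSSs and all were tested. With cAMP, 3 were higher and 1 lower by limma on gene sums, where 14.6% of all gene sums were higher and 14.7% lower. Ldha, the lactate dehydrogenase subunit, rose from 2079 ± 53.8 to 3636 ± 232 RPM (log2 fold change 0.80, adjusted p = 7.76e-12). Gapdh, the enzyme after aldolase in the pathway, rose from 592 ± 39.1 to 979 ± 99.8 RPM over its 13 TSSs (0.72, adjusted p = 9.01e-08), and Gpi, which acts before it, from 161 ± 8.25 to 213 ± 5.45 RPM (0.40, adjusted p = 0.0073). Pdk2, a kinase that inhibits pyruvate dehydrogenase, fell from 60.6 ± 1.96 to 23.2 ± 6.73 RPM (-1.39, adjusted p = 5.92e-05). Pfkl, Pfkfb2 and Slc16a1 were not called.

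The median log2 fold change of the 7 was 0.40, against -0.03 over all gene sums. In S16 cells, Ldha fell from 3955 ± 332 RPM in parental cells to 1439 ± 235 RPM in the clones (-1.47, limma adjusted p = 0.000772) and the other 6 were not called, where 2.3% of all gene sums were higher and 5.95% lower. The median of all 7 was -0.06, against -0.17 over all gene sums. Nerve had 280 ± 4.54 RPM of Ldha, 538 ± 24.7 RPM of Gapdh and 47.5 ± 13.0 RPM of Gpi (n = 2), below all culture groups for Ldha, Gapdh and Gpi alike.

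The patterns most like those of the larger Aldoa TSSs were sought by Pearson's r of log2(RPM + 1) over the 14 libraries. The search covered 2358 TSSs of other genes with a mean of at least 10 RPM. The libraries came from several groups and differed in depth, so r also reflects differences between groups. The main TSS was closest to TSSs of Arpc4 (0.992), Actb (0.989) and Rpn2 (0.982), a subunit of the complex that nucleates actin branches, cytoskeletal actin and a subunit of the oligosaccharide transferase. The narrow TSS was closest to TSSs of Cd9 (0.869), Pdgfrb (0.863) and Cryab (0.839), a tetraspanin, a growth factor receptor of pericytes and a small heat shock protein. The broad TSS was closest to Ebf1, a transcription factor (0.934), and to a pair of TSSs of the ferritin heavy chain gene Fth1 (0.929 and 0.907).

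Those 3 sets shared no gene. Summed over its TSSs, Pdgfrb was at 42.7 ± 17.1 RPM in nerve, 1.24 ± 0.593 RPM in control, 26.4 ± 3.67 RPM in cAMP, 5.80 ± 1.21 RPM in parental and 8.21 ± 7.85 RPM in ΔSOX10 libraries. Its TSS closest to the narrow Aldoa TSS had means of 39.1, 0.909, 24.7, 4.33 and 7.46 RPM in that order. The marker list for smooth muscle and pericytes had Pdgfrb as its single gene of 4 in the table, and its part in the Aldoa values was not tested. For the Aldoa sum, the closest of 2100 genes were RGD1562114 (0.974), Cnn2 (0.961) and LOC100911177 (0.953).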

How the data were processed

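Per the submitters' processing notes, cutadapt 1.14 removed adapters, STAR 2.5.2a aligned reads to rn5, and SAMtools 1.9 and featureCounts (Subread 1.6.1) handled alignments and counts, while Paraclu grouped read starts into TSSs. The values analysed are the deposited RPM values, 1 per TSS and library, scaled by the authors to each whole library. The table also holds log2 fold changes and FDR-adjusted p-values deposited by the authors from their edgeR 3.24.3 comparisons, which were not used. Coordinates are 1-based.

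The low RPM values were whole multiples of 1 read, within 0.1 read, in the 13 of 14 libraries with enough of them to check (the exception was a nerve library). Part of the S16 values was rounded to 3 digits, so recovered reads are approximate. The floor was 3 reads, covering counting error only.

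The main test was limma 3.58.1 in R 4.3.3 (lmFit, eBayes with trend, diffSplice) on log2(RPM + 1) over the 6 libraries of each comparison without covariates. TSSs above 1 RPM in at least 2 libraries were tested, p-values were adjusted by Benjamini-Hochberg over all features, and the threshold was 0.05. The TSSs were also summed per gene and per run of TSSs less than 500 bp apart. The scripts were tested on simulated data. As alternatives, recovered reads were tested with DESeq2 1.42.0 and edgeR 4.0.16. The members, gene lists and motifs were chosen with earlier results of these data known. Named are Aldoa TSSs of at least 10 RPM in a group, called glycolytic genes, Sox10, and the 3 most similar genes or TSSs for the Aldoa sum and for Aldoa TSSs of at least 50 RPM in nerve. Promoter windows are RefSeq's.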

Additional observations from a re-analysis of the deposited data

Results flagged for a closer look

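In 25 Aldoa values (16 TSSs, the 4 groups as RPM and as shares, and the sum), 1 of the 4 ΔSOX10 clones stood far from the other 3 at 2 TSSs. Chance alone sets apart about 1 in 20 such groups if values are normally distributed. That rate does not apply where the other 3 clones are at 0, since any reads then set a clone apart. At chr1:205210434-205210436, clone 1-2 had 0.661 RPM and the others 0, and at chr1:205209847-205209851 it had 0.381 RPM and the others 0. These values correspond to 26 and 15 reads, and neither TSS was tested in the S16 comparison.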

How the results depend on the processing

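Called results are given first. The narrow upstream TSS and the upstream group kept their higher call with cAMP under all 16 alternatives, with log2 fold changes from 1.51 to 2.38 and from 1.53 to 2.24. The number of Aldoa TSSs called lower with cAMP was 1, became 2 with no filter, and ranged from 0 to 1 when replicates were left out. The second TSS with no filter was chr1:205210434-205210436 (adjusted p = 0.0264), which was also the 1 called lower with all 14 libraries and without cAMP 1. The number of positional groups called lower was 1, became 0 with all 14 libraries, and ranged from 0 to 1 with replicates left out, being 0 without control 1, control 2 or cAMP 2. TSS use with cAMP had an adjusted p of 0.321 and passed only with a pseudocount of 5 (0.00322), while edgeR's diffSpliceDGE gave 0.0502.

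In S16 cells, TMM and median-ratio scaling each called 1 Aldoa TSS higher (the broad upstream TSS), and DESeq2 called 2 TSSs and 1 positional group higher and the sum (log2 fold change 0.50). The cause of these changes was not tested.

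Some uncalled values changed sign. With cAMP and replicates left out, the far downstream TSS ranged from -0.044 to 0.38, the far downstream group from -0.16 to 0.16 and the near downstream group from -0.20 to 0.64. In S16 cells, the narrow TSS was -0.0029 with a pseudocount of 0.1 and ranged from -0.30 to 0.35 with replicates left out, the far downstream TSS from -0.022 to 0.26, the far downstream group from -0.072 to 0.17 and the near downstream group from -0.060 to 0.46. The called glycolytic genes stayed at 2 or 3 higher and 1 lower with cAMP and at 0 higher and 1 lower in S16 cells under the alternatives tried.

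Control and cAMP libraries share replicate numbers, but same-numbered libraries deviated together hardly at all (correlations 0.03, 0.01 and 0.04), so the numbers were not taken as pairs. With the replicate number as a block, the narrow TSS (1.97, adjusted p = 0.000255) and the main TSS (-0.21, adjusted p = 0.0242) kept their calls, TSS use had an adjusted p of 0.217, and no Aldoa call changed.

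With 2 nerve and 2 parental libraries, the SDs of those groups are imprecise. At TSSs of a few RPM, replicates differed by more than counting error.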
